A study of Homo sapiens with 12 samples.

Results

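Cancer-testis antigens are proteins whose genes are active in the germ cells of the testis, are silent in most other adult tissues and come back on in many tumours. The expression of 8 of their families (CT45A, MAGEA, MAGEB, MAGEC, GAGE, PAGE, XAGE and SSX) was examined in human HEK-293T cells by microarray. Genes were chosen by symbol, a family name followed by a digit, and each gene was represented by its brightest spot over all 12 arrays. This gave 44 of the 20042 genes with a value on every array, measured by 95 spots. The choice was made with array values known, because CT45A1 and CT45A5 were far lower in the CNOT1 and CNOT3 lines whether or not Dox was given. That contrast is therefore given below as a description, without a test.

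HEK-293T is an established embryonic kidney line that grows in culture and carries the SV40 large T antigen. All cells held a stably integrated pINDUCER plasmid (pIND) from which doxycycline (Dox) switches on a short hairpin RNA. The hairpin was directed against CNOT1, CNOT2 or CNOT3, subunits of the CCR4-NOT complex that shortens mRNA tails and regulates transcription, or against firefly luciferase (Luci) as the control. The CNOT1 and CNOT3 lines had 1 array without Dox (-Dox) and 1 with Dox (+Dox), and the CNOT2 and Luci lines had 2 of each, numbered replicate 1 and 2. The study worked with stable cell clones, and how many clones stood behind each line is not given in the sources used here, so an effect of a hairpin plasmid and a property of a clone cannot be told apart. For Luci -Dox replicate 2 the title gives no Dox and another label gives Dox; the title was used. The labels speak of technical replicates, while the study's text speaks of a biological as well as a technical one and of a later experiment added to an earlier one for the CNOT2 and Luci lines. The p-values therefore measure only the spread between arrays, which may be technical.

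The targeted genes followed the labels. CNOT1 was lowest on the CNOT1 +Dox array (5.07 on the log2 scale), CNOT3 on the CNOT3 +Dox array (6.80) and CNOT2 on both CNOT2 +Dox arrays (8.96 and 8.38). On the CNOT3 -Dox array CNOT3 was already at 8.96, against 9.76 to 10.68 in the other lines. CNOT2 was at 9.86 and 9.72 on the CNOT2 -Dox arrays, against 9.98 to 10.76. CNOT1 was at 7.23 on the CNOT1 -Dox array, within the 6.35 to 7.24 of the other lines. All values are log2 signals normalised to 1 common distribution, in which the median spot lay at 3.34 and the lower quartile at 2.54 on the arrays. No detection calls came with the values, so a signal near or below 3.34 is treated here as close to background. The epithelial, neural and renal genes checked as HEK-293T markers all had means above the median spot, whereas 7 of 8 germ cell markers lay below it. The exception was ACR, the acrosomal protease, at 2.72 to 5.90. NEFM and NEFL, the neurofilament subunits in the HEK-293T marker list, were lower in the CNOT1 and CNOT3 lines (NEFM 8.63 to 10.41 against 14.45 to 14.93, NEFL 9.03 to 10.07 against 11.50 to 12.92), and the summed level of the 8 markers was 77.3 to 78.5 there against 82.9 to 88.6. The other 6 markers differed by less than 2-fold, from -0.80 (LHX1) to 0.60 (KRT8). Of 3 lymphocyte markers measured all lay below the median spot, their sum being 7.20 to 9.34 in the CNOT1 and CNOT3 lines and 7.09 to 8.38 in the others. Of 4 fibroblast markers, LUM and COL1A2 lay below it, and the sum was 15.2 to 17.2 against 15.3 to 18.3.

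Of the 44 genes, 43 lie on the X chromosome, where these families form clusters of recently duplicated copies. The exception is SSX2IP on chromosome 1, which the symbol rule caught because its name begins with SSX2. It encodes a centrosome and cell junction protein found as a partner of SSX2 and is not itself a cancer-testis antigen. Promoters of many genes of this class are known to be held silent by methylation of CpG dinucleotides, and blocking DNA methylation is known to reactivate several of them. A RefSeq promoter window of 300 bases around the start site, on build GRCh38.p14, was listed for 37 of the 44 genes. The number of CpG ranged from 1 to 32 in these windows, with a median of 10, while the median over all 35116 listed windows was 14.

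The windows of the 3 genes that the results turn on are shown 5′ to 3′ with every CpG in capitals. The CT45A1 window (chrX:135713389-135713688, plus strand) held 8 CpG, as many or more than which were found in 60.7% of all windows. The MAGEA6 window (chrX:152769640-152769939, minus strand) held 19, reached by 42.9% of windows, and the MAGEA2B window (chrX:152714378-152714677, plus strand) held 17, reached by 46.0%.
CT45A1: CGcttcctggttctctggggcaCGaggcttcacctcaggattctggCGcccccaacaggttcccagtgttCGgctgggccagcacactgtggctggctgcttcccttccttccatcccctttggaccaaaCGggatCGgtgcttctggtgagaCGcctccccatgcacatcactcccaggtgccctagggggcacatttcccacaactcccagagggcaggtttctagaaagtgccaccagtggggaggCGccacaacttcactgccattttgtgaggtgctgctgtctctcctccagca
MAGEA6: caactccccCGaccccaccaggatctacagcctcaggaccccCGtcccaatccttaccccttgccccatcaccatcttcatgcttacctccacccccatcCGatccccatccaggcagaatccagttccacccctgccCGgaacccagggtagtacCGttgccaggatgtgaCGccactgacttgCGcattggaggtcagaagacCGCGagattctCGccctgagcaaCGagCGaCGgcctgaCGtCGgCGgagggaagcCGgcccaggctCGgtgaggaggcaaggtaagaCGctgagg
MAGEA2B: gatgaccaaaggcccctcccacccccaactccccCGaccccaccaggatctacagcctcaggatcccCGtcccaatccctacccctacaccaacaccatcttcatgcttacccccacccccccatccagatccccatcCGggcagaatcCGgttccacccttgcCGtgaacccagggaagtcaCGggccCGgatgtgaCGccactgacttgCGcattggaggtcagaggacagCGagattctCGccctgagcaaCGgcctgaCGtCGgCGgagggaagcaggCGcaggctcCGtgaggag
Several copies are close to one another. The MAGEA6 window was identical to that of MAGEA3 over 300 of 300 bases, and the MAGEA2B window to that of MAGEA2 over 300 of 300. The CT45A1 window shared an unbroken run of 156 bases with that of CT45A7, and runs of 28 and 99 bases with the windows of both CT45A10 starts. The longest stretch common to the MAGEA6, MAGEA2B and MAGEA12 windows was 24 bases long and held 2 CpG. In MAGEA6 it lies at chrX:152769752-152769775, beginning at position -86 from the start site. It is printed because the 3 MAGEA genes described below share it, and a part in their signals was not tested.
shared stretch: ggatgtgaCGccactgacttgCGc
Searched on both strands, this stretch was found in 11 windows of 9 genes, 0.0313% of all windows, and all 9 are MAGEA or CSAG genes or transcripts that diverge from them. No array measurement reported here reads methylation. A probe for 1 copy may also detect RNA of its near-identical neighbours, so a value given for CT45A1, CT45A5, MAGEA6 or MAGEA2B can be that of several copies.

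CT45A1 and CT45A5 belong to a cluster of nearly identical genes that encode small nuclear proteins of little known function. CT45A5, with 1 spot, had a signal of 2.77 in the CNOT1 line -Dox and 4.30 +Dox, and of 2.82 in the CNOT3 line -Dox and 4.01 +Dox. In the CNOT2 line it was 9.95 and 9.89 -Dox and 9.98 and 10.02 +Dox. In the Luci line it was 10.01 and 9.93 -Dox and 10.20 and 9.81 +Dox. All 4 arrays of the CNOT1 and CNOT3 lines were thus close to or little above background, while the 8 others lay within a narrow high band. The means were 3.48 ± 0.79 (SD, n = 4 arrays) and 9.97 ± 0.11 (SD, n = 8 arrays), a log2 difference of -6.50.

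CT45A1 had 2 spots, and both separated the same arrays. The brighter one read 3.08 in the CNOT1 line -Dox and 4.27 +Dox, and 4.31 in the CNOT3 line -Dox and 4.02 +Dox. It read 9.76 and 9.50 -Dox and 9.80 and 9.84 +Dox in the CNOT2 line. The Luci line gave 9.34 and 9.51 -Dox and 9.65 and 9.11 +Dox. The high and low arrays were the same as for CT45A5, with means of 3.92 ± 0.57 (SD, n = 4 arrays) and 9.56 ± 0.25 (SD, n = 8 arrays) and a log2 difference of -5.64. The dimmer spot ranged from 2.52 to 3.77 in the CNOT1 and CNOT3 lines and from 5.03 to 5.90 in the others, a log2 difference of -2.41. Since the low arrays reach background, these differences are limited from below by what the array can measure. The neurofilament markers named above were lower on the same 4 arrays, and their part in the CT45A difference was not tested. In RNA from whole cultures, fewer cells with the transcript and less transcript per cell cannot be told apart.

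**Figure D1:**
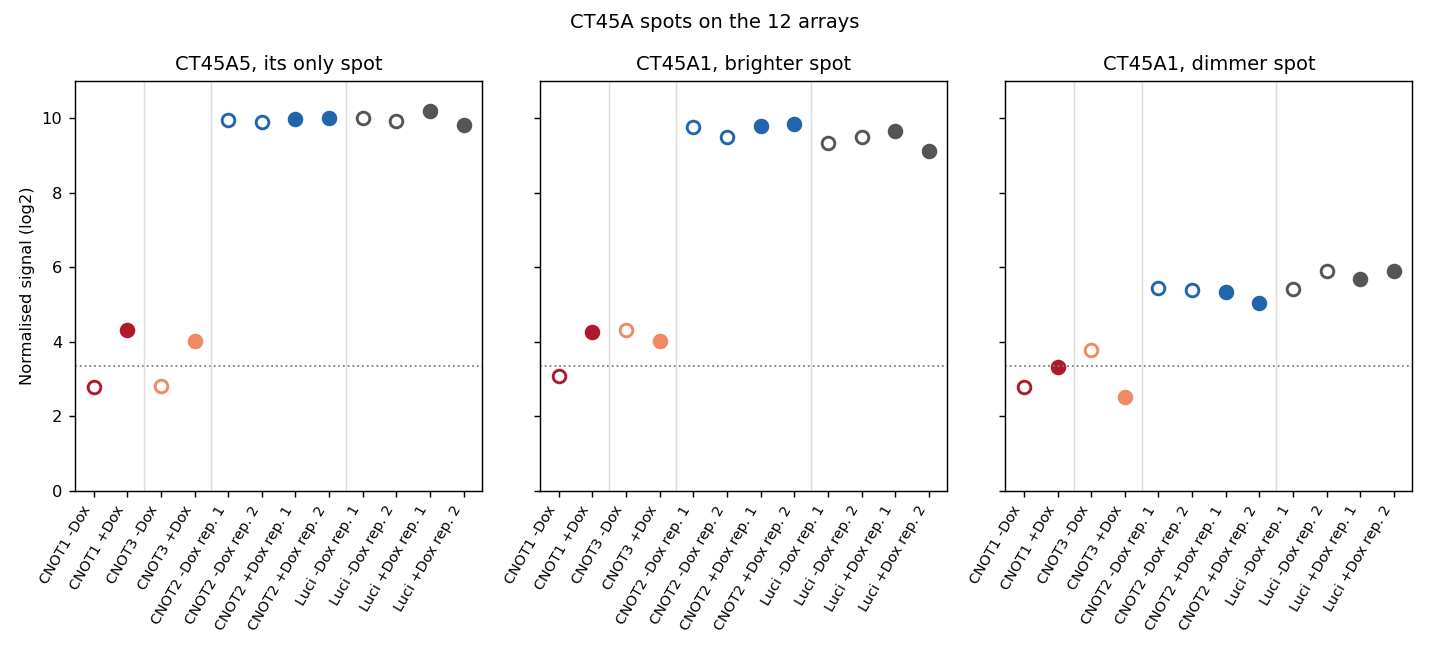
Normalised log2 signal (vertical axis) of the CT45A5 spot and of both CT45A1 spots on the 12 arrays (horizontal axis), with open circles for -Dox, filled circles for +Dox and 1 colour per line; the dotted line is the median of all spots, 3.34. On each spot the 4 arrays of the CNOT1 and CNOT3 lines lie below the 8 arrays of the CNOT2 and Luci lines, from 2.77 to 4.30 against 9.81 to 10.20 for CT45A5.

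Ranked by this difference over all 20042 genes, CT45A5 was second lowest and CT45A1 was 5th. HES5, a Notch target gene of the bHLH repressor family, was lowest at -7.81, and LGALS3 (galectin-3) and FZD10 (a Wnt receptor) stood between the CT45A genes at -5.96 and -5.95. Differences below -5 were found for 11 genes. Of the 17 genes of the families that passed the filter on low signals over 12 arrays, CT45A1 and CT45A5 were more than 2-fold lower in the CNOT1 and CNOT3 lines with no overlap between arrays, beside 2.61% of the 15036 genes that passed. In the other direction SSX2IP, by the brighter of its 2 spots, was the 1 member, beside 1.62%. The median difference was -0.13 over the 17 members and 0.02 over the 15036 genes. Since the lines were part of the choice of genes, nothing is read from these counts.

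Outside the families, the 5 genes whose pattern was most like that of CT45A1 over the 12 arrays, by Pearson's r, lie on other chromosomes. The arrays share lines and normalisation, and r is given as a description. SPINT2, a membrane inhibitor of serine proteases, had r = 0.993 and a signal of 6.17 to 7.01 in the CNOT1 and CNOT3 lines against 10.65 to 11.23 in the others. RBP7, a retinoid-binding protein (r = 0.991), read 2.91 to 3.25 against 8.11 to 8.89. PLAT, the tissue plasminogen activator (r = 0.990), read 7.89 to 9.07 against 11.45 to 12.30. NHLH2, a neural bHLH transcription factor (r = 0.985), read 2.39 to 2.75 against 6.93 to 8.19, and the kinase gene MAP3K13 (r = 0.984) 10.13 to 10.38 against 11.16 to 11.40. In each the same 4 arrays were the low ones. CT45A5 itself had r = 0.991, and 164 of 19998 genes outside the families had r above 0.9.

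Genes next to the CT45A cluster on the X chromosome did not share its range. The 15 nearest measured genes on each side, in RefSeq order, had a median difference of -0.01 between the CNOT1 and CNOT3 lines and the others. The nearest, DDX26B (now INTS6L, a paralogue of an Integrator subunit) on one side and MMGT1 (a membrane protein linked to magnesium transport) on the other, had differences of -0.26 and -0.15. PLAC1, a placental gene, read 7.95 to 9.20 in the CNOT1 and CNOT3 lines against 9.77 to 10.92 (difference -1.48). MOSPD1 read 7.22 to 7.73 against 8.12 to 9.28 (difference -1.35). FGF13, an intracellular relative of the fibroblast growth factors, ran the other way at 5.53 to 5.99 against 2.39 to 4.57 (difference 1.94). These were the 3 of 30 neighbours whose arrays did not overlap with a difference of more than 2-fold. Signals of 10 of the 30 had a mean below the median spot and so could hardly fall further. Of the 22 neighbours that passed the filter, 9.09% were lower and 4.55% higher by this measure, with a median difference of 0.04. Of all 516 X-linked genes outside the families that passed, these neighbours included, 2.33% were lower and 4.07% higher, with a median difference of 0.17.

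**Figure D2:**
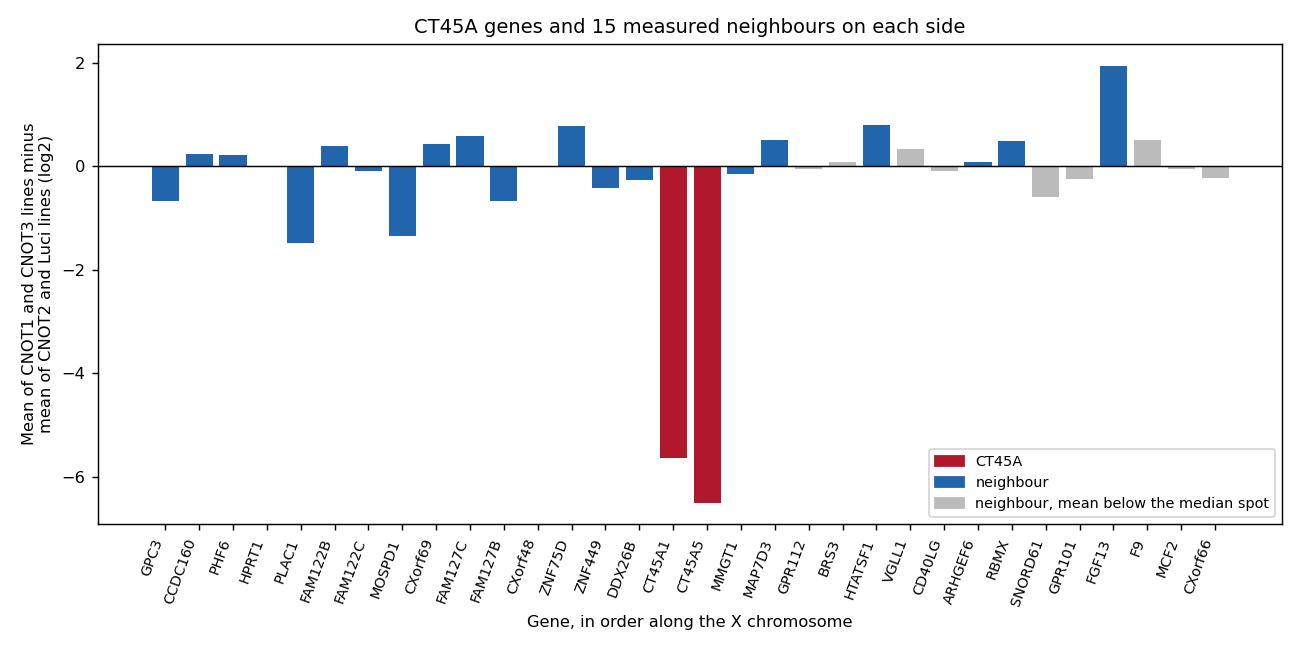
Log2 difference between the mean of the 4 arrays of the CNOT1 and CNOT3 lines and the mean of the 8 arrays of the CNOT2 and Luci lines (vertical axis) for CT45A1, CT45A5 and 15 measured genes on each side in chromosomal order (horizontal axis). The CT45A bars reach -5.64 and -6.50, and the neighbours lie between -1.48 (PLAC1) and 1.94 (FGF13), with grey bars for neighbours whose mean is below the median spot.

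MAGEA genes, on the distal long arm of the X chromosome, encode proteins with a MAGE homology domain, several of which bind and direct RING ubiquitin ligases. Of 10 measured, 7 had a mean below the median spot. The brightest MAGEA2B spot was high on a single pair of arrays. It read 6.86 -Dox and 6.76 +Dox in CNOT2 replicate 1, but 3.97 -Dox and 4.08 +Dox in CNOT2 replicate 2. In the Luci line it read 3.81 and 2.99 -Dox and 3.59 and 3.29 +Dox, in the CNOT1 line 2.46 and 1.94, and in the CNOT3 line 3.31 and 2.25 (-Dox and +Dox). Both CNOT2 replicate 1 arrays therefore stood above the other 10, by 3.64 on the log2 scale from their mean. This was the second largest such difference of all 20042 genes. Taking genes more than 2-fold above the mean of the other 10 arrays and above each of them on both arrays, MAGEA2B was 1 of 17 members that passed the filter, and 0.519% of the 15036 genes met this measure. The second MAGEA2B spot did not show it, with 3.75 and 3.29 on these arrays and up to 4.40 on the others.

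MAGEA6, which with MAGEA3 is known for directing the ubiquitin ligase TRIM28, had 11 spots. On the brightest of them the signal was 5.84 -Dox and 5.05 +Dox in CNOT2 replicate 1 and 3.09 and 3.84 in replicate 2. The Luci line gave 5.11 and 4.70 -Dox and 3.70 and 3.08 +Dox, the CNOT1 line 2.86 and 3.87, and the CNOT3 line 3.35 and 4.00. Here 1 Luci -Dox array reached between the CNOT2 replicate 1 arrays. Over the 11 spots, however, the median was 5.05 and 4.95 on the CNOT2 replicate 1 arrays and 2.88 to 3.80 on the other 10. On 7 of 11 spots both CNOT2 replicate 1 arrays lay above all others, and the difference ranged from 0.97 to 3.75 with a median of 1.53. None of the 10 MAGEA11, 11 SSX3 or 10 XAGE3 spots (0, 0 and 0) had both of these arrays above all others. The dimmer SSX2 spot did (3.19 and 3.75 against 3.15 at most). The share of all spots on the arrays that meet this measure was not counted, so nothing is read from these spot counts. Spots on 1 array read the same RNA and are not replicates, and whether they carry 1 probe sequence is not given in the sources used here. MAGEA12, with 1 spot, read 3.50 -Dox and 4.85 +Dox in CNOT2 replicate 1 and between 1.95 and 3.57 elsewhere, so that 1 of the 2 arrays was above the other 10.

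This replicate pattern was tested after it had been seen, with limma on the 8 CNOT2 and Luci arrays. MAGEA2B was higher in replicate 1 than in replicate 2 of the CNOT2 line by 2.79 ± 0.24 (SE), in both Dox states, but the adjusted p was 0.162. The difference of MAGEA6 (1.98 ± 0.42, adjusted p = 0.165) also missed the threshold by limma, as did that of MAGEA11 in the other direction (-1.39 ± 0.39, adjusted p = 0.197). No member was called (0 of 19, beside 0% of 15031 genes), although 4 of 19 members and 2921 of 15031 genes had an unadjusted p below 0.05. The 4 include MAGEA12, which passed the filter only through the CNOT2 replicate 1 arrays and for which no test is given. With an intensity trend in limma's variance, which was also chosen after the values were seen, MAGEA2B passed (adjusted p = 0.0188) as 1 of 19 members, beside 4.86% of genes. In the Luci line the corresponding MAGEA2B difference was 0.56 ± 0.24 (adjusted p = 0.263), and limma called 0 of 19 members, beside 0% of genes. With the intensity trend it again called 0 of 19, beside 7.72% of genes. The difference between both lines was 2.23 ± 0.34 and missed the threshold (adjusted p = 0.999 by limma). A property of the replicate 1 culture and of its handling cannot be told apart.

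**Figure D3:**
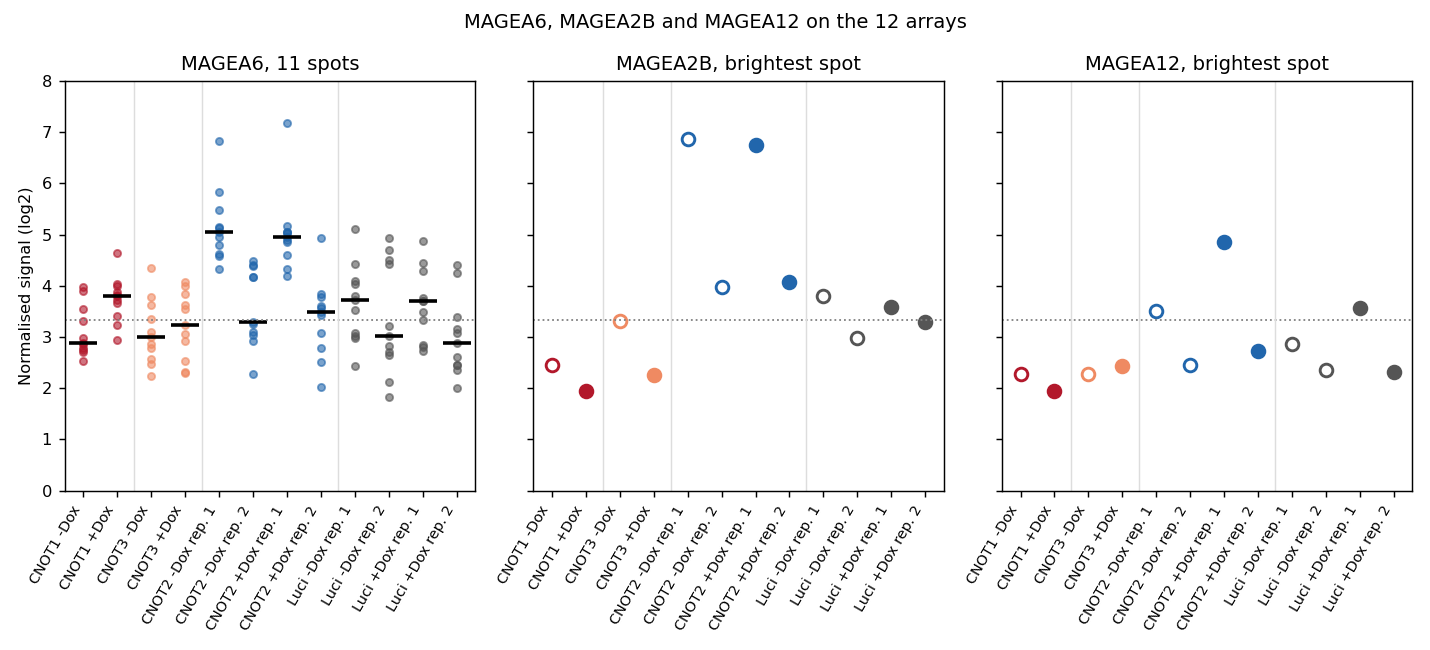
Normalised log2 signal (vertical axis) on the 12 arrays (horizontal axis) for the 11 MAGEA6 spots, with a black bar at their median, and for the brightest MAGEA2B and MAGEA12 spots, with open circles for -Dox and filled circles for +Dox; the dotted line is the median of all spots, 3.34. The CNOT2 replicate 1 arrays stand highest for MAGEA2B (6.86 and 6.76) and by the MAGEA6 median (5.05 and 4.95).

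The remaining members gave little signal. Apart from CT45A1, CT45A5 and SSX2IP, 35 of 41 had a mean below the median spot, and their single values ran from 1.71 to 6.86. On its brightest spot MAGEA11, whose product is a coregulator of the androgen receptor, read 2.34 to 4.77 with a median of 3.62. The highest array on this spot was CNOT2 -Dox replicate 2. By the median over its 10 spots the highest array was CNOT2 +Dox replicate 2 (3.635), the other arrays lying between 2.405 and 2.91. In the MAGEB family, close relatives of MAGEA on the short arm of the X chromosome, 8 of 10 genes had a mean below the median spot. MAGEB5 read 2.69 to 4.30 (median 3.31), MAGEB18 2.33 to 5.10 (median 3.35) and MAGEB2 2.12 to 4.24 (median 2.74). The highest array differed among them, being Luci +Dox replicate 2, Luci -Dox replicate 2 and CNOT1 +Dox. All 3 MAGEC genes lay below the median spot, with MAGEC2, a partner of TRIM28, at 1.96 to 4.08 (median 2.70) and MAGEC1 at 2.11 to 3.58 (median 2.63). The 2 GAGE genes measured here, which encode small acidic proteins, were at the bottom of the scale. GAGE7 (now GAGE12F) read 1.92 to 3.90 (median 2.68) and GAGE1 1.71 to 2.82 (median 2.41).

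The relatives of GAGE were similar. All 5 PAGE and 4 XAGE genes had a mean below the median spot. PAGE2 ranged from 2.59 to 4.24 (median 3.13), PAGE2B from 2.12 to 4.13 (median 3.10), XAGE3 from 2.29 to 3.85 (median 2.93) and XAGE2B (now XAGE2) from 2.08 to 3.71 (median 2.96). SSX genes encode nuclear repressors whose C-terminal part is fused to SS18 in synovial sarcoma. SSX2 ranged from 2.40 to 4.28 (median 3.67), and SSX1 from 1.82 to 4.27 (median 2.36) with its highest value in CNOT2 +Dox replicate 2. None of these genes had both high and low lines set apart as CT45A did: outside CT45A, by the brightest spot of each gene, SSX2IP alone of the 44 genes had a difference of more than 2-fold between the CNOT1 and CNOT3 lines and the others without overlap. On this spot SSX2IP read 7.61 and 7.18 in the CNOT1 line and 7.54 and 8.32 in the CNOT3 line (-Dox and +Dox). In the CNOT2 line it read 5.82 and 6.42 -Dox and 6.60 and 5.82 +Dox, and in the Luci line 6.03 and 6.49 -Dox and 6.10 and 6.39 +Dox, so that its line difference was 1.45. The second SSX2IP spot did not show it. It read 6.40 and 5.80 in the CNOT1 line and 5.93 and 5.88 in the CNOT3 line (-Dox and +Dox) and 5.63 to 6.49 in the others, overlapping, with a difference of -0.10.

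**Figure D4:**
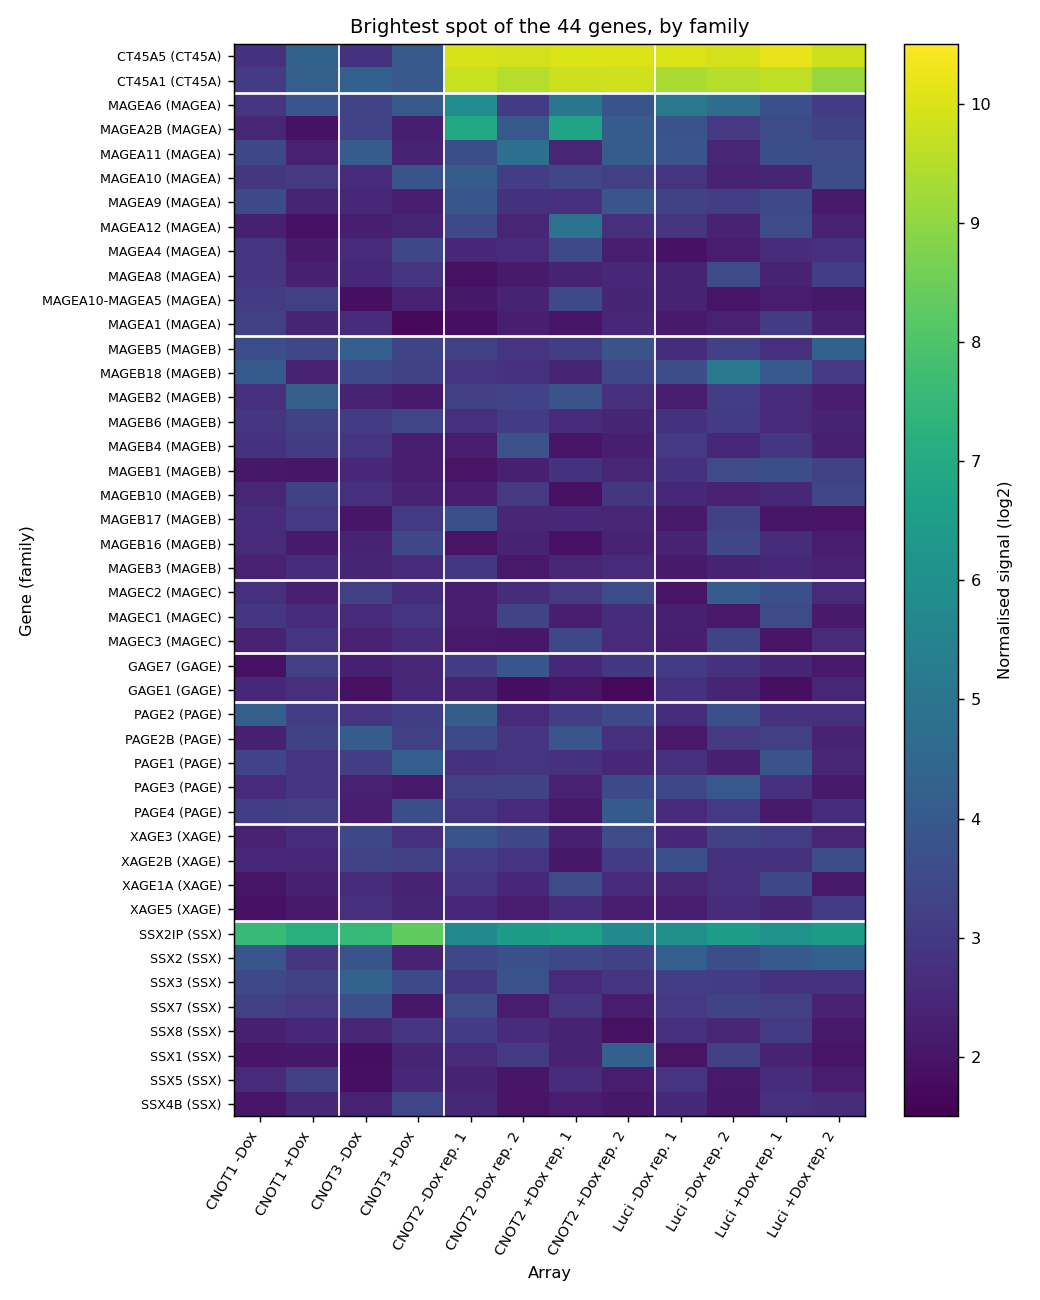
Normalised log2 signal (colour scale) of the brightest spot of the 44 genes (vertical axis, grouped by family) on the 12 arrays (horizontal axis). Within each gene the colours show which arrays are high: the CT45A genes in the 8 CNOT2 and Luci arrays, MAGEA2B in the CNOT2 replicate 1 arrays and SSX2IP, on this spot but not on its second one, in the 4 CNOT1 and CNOT3 arrays.

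The difference between +Dox and -Dox arrays of a line was next compared. It was not the contrast by which the genes were chosen, although the choice of CT45A1 and CT45A5 rested on both the -Dox and the +Dox signals of the CNOT1 and CNOT3 lines. In the CNOT2 line limma called 0 of 19 members, beside 0% of 15031 genes, with 0 members and 602 genes at an unadjusted p below 0.05. The Dox differences of members in this line lay between -0.93 and 0.82 with a median of -0.02 (0.01 over all genes). CT45A5 differed by 0.08 ± 0.26 (SE, 95% interval -0.55 to 0.71) and CT45A1 by 0.19 ± 0.29 (-0.51 to 0.89). In the Luci line 0 of 19 members were called by limma, beside 0% of genes, with 1 member and 419 genes at an unadjusted p below 0.05. That member was PAGE3, which passed the filter only through the Luci -Dox arrays (3.45 and 3.99) and for which no test is given. The median over members was -0.02. CT45A5 (0.04 ± 0.26) and CT45A1 (-0.05 ± 0.29) had intervals of -0.59 to 0.66 and -0.74 to 0.65. The difference between the Dox effects of both lines called 0 of 19 members by limma, beside 0% of genes, with 0 members and 353 genes at an unadjusted p below 0.05.

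The CNOT1 and CNOT3 lines had 1 array per condition, and limma took their spread from the replicated groups. There CT45A5 and CT45A1 read 9.81 to 10.20 and 9.11 to 9.84, with within-group SDs of 0.14 and 0.22. That spread comes from high signals and does not measure variation near background, where these genes lay here. Intervals and p-values of the CT45A genes in these lines are therefore not read. In the CNOT1 line 0 of 17 members were called, beside 0% of 15036 genes. CT45A5 and CT45A1 were the 2 members at an unadjusted p below 0.05, as were 383 genes. The Dox difference of CT45A5 was 1.53 and that of CT45A1 was 1.19. In the CNOT3 line limma again called 0 of 17 members, beside 0% of genes, with 2 members and 467 genes at an unadjusted p below 0.05. These were CT45A5 and SSX2, which differed by 1.19 and -1.43. The dimmer SSX2 spot did not show this fall, reading 2.53 -Dox and 2.60 +Dox. CT45A1 differed by -0.29, and its dimmer spot read 3.77 -Dox and 2.52 +Dox. Both +Dox arrays were thus above the -Dox array of their line for CT45A5, but these signals lie where the array measures little.

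Averaged over the CNOT1, CNOT2 and CNOT3 lines, the Dox effect called 0 of 17 members by limma, beside 0% of 15036 genes. CT45A5 (0.93 ± 0.20, 95% interval 0.47 to 1.40, adjusted p = 0.723), SSX2 (-0.88 ± 0.22, adjusted p = 0.853) and MAGEA11 (-1.26 ± 0.53, adjusted p = 1.00) had an unadjusted p below 0.05, as did 732 genes. The median was -0.24 over the members and 0.01 over all genes. SSX2 and MAGEA11 were tested by their brightest spot only. The dimmer SSX2 spot read higher +Dox than -Dox in each of these lines. It went from 2.79 to 3.15 in the CNOT1 line and from 2.53 to 2.60 in the CNOT3 line. In the CNOT2 line it went from 3.19 to 3.75 (replicate 1) and from 2.44 to 2.86 (replicate 2). The mean over the 10 MAGEA11 spots did not show the fall of its brightest spot. From -Dox to +Dox it went from 2.77 to 2.80 in the CNOT1 line and from 2.69 to 2.63 in the CNOT3 line. In the CNOT2 line it went from 2.79 to 2.61 (replicate 1) and from 3.02 to 3.65 (replicate 2). For CT45A5 the spread again came from the high CNOT2 and Luci arrays, so its interval is not read.

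**Figure D5:**
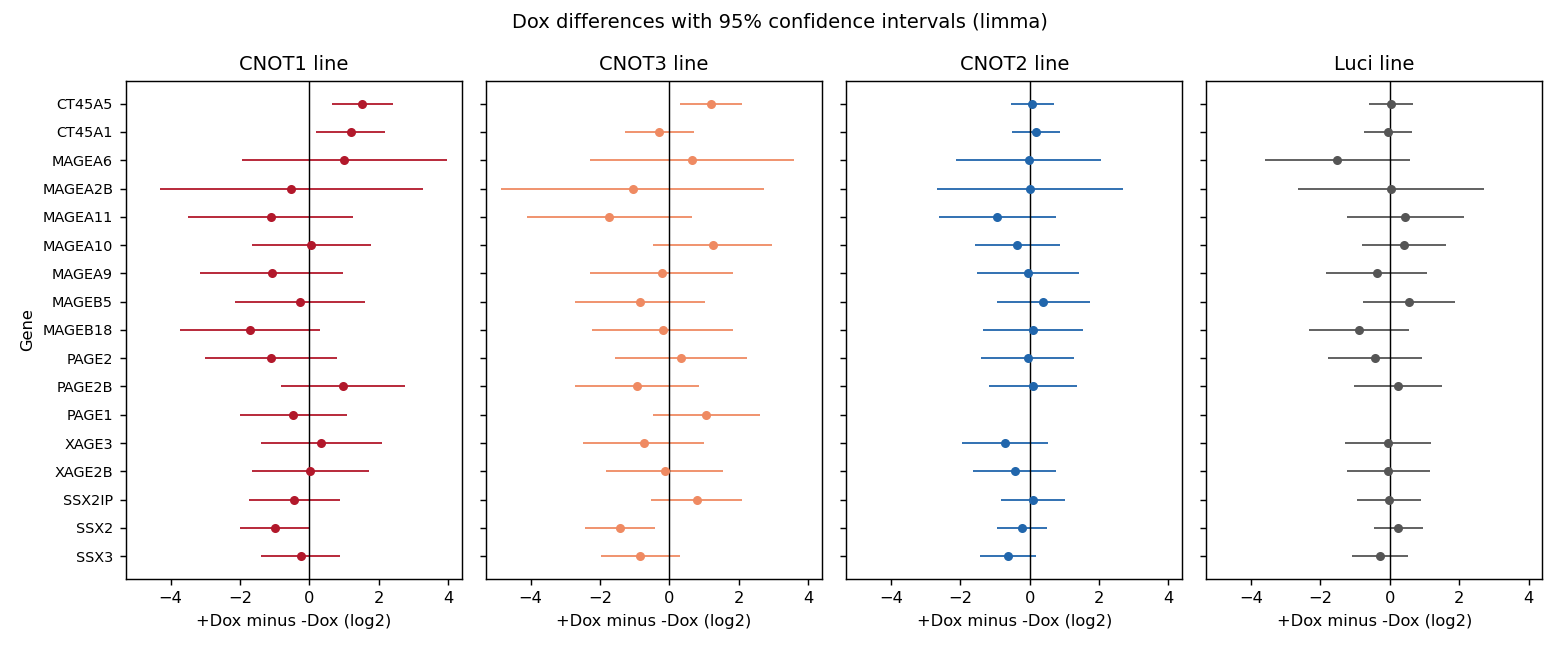
Log2 difference +Dox minus -Dox (horizontal axis) with limma's 95% confidence interval for the 17 members that passed the filter over 12 arrays (vertical axis), in 1 panel per line; PAGE1, which did not pass over 8 arrays, has no value in the CNOT2 and Luci panels. The CT45A points of the CNOT2 and Luci lines lie between -0.05 and 0.19, and the CT45A5 points of the CNOT1 and CNOT3 lines at 1.53 and 1.19. For the CT45A genes the intervals in the CNOT1 and CNOT3 panels take their spread from the high CNOT2 and Luci arrays.

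Comparisons of the CNOT2 with the Luci line and of the CNOT1 with the CNOT3 line gave no called member either. The choice of CT45A1 and CT45A5 had already set each of these pairs of lines together, so their differences within the pairs are a description. Between the CNOT2 and Luci lines -Dox, limma called 0 of 19 members, beside 0% of 15031 genes. At an unadjusted p below 0.05 there were 401 genes and 1 member, MAGEB18 (-1.53 ± 0.60, adjusted p = 1.00). MAGEB18 read 2.89 and 2.79 in CNOT2 -Dox and 3.64 and 5.10 in Luci -Dox. The 5.10 was on Luci -Dox replicate 2, the array whose labels conflict on Dox. CT45A5 differed by -0.05 ± 0.26 (95% interval -0.68 to 0.58) and CT45A1 by 0.21 ± 0.29 (-0.49 to 0.90). MAGEA2B differed by 2.02 ± 1.13 (-0.67 to 4.70), the CNOT2 -Dox replicates 1 and 2 reading 6.86 and 3.97. Between both lines +Dox, 0 of 19 members were called by limma, beside 0% of genes, with 806 genes and 1 member, SSX2 (-0.80 ± 0.30, adjusted p = 0.893), at an unadjusted p below 0.05. The dimmer SSX2 spot went the other way, at 3.75 and 2.86 in CNOT2 +Dox and 2.40 and 2.26 in Luci +Dox. The CNOT1 line minus the CNOT3 line, each averaged over its arrays, called 0 of 17 members, beside 0.0798% of 15036 genes, with 0 members and 1732 genes at an unadjusted p below 0.05. Here CT45A5 differed by 0.12 and CT45A1 by -0.49, and the spread in limma again came from the high signals of the other lines.

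Other cancer-testis antigens, from a list of 50 of which 41 were measured, were mostly dim as well, 26 having a mean below the median spot. PRAME, a tumour antigen that represses retinoic acid receptor signalling, read 7.91 to 8.94 in the CNOT1 and CNOT3 lines and 8.16 to 9.68 in the others. PBK, a mitotic kinase, was the 1 gene of the list more than 2-fold lower in the CNOT1 and CNOT3 lines without overlap (9.70 to 10.40 against 11.25 to 11.63), and 0 were higher, out of 19 that passed the filter and beside 2.61% lower and 1.62% higher of all 15036 genes. The median over the 19 was -0.05. CTAG1A, the NY-ESO-1 antigen, read 3.45 to 5.78 against 3.08 to 4.61. CSAG1 and CSAG3, which carry the stretch shared by the MAGEA promoters, ranged from 2.70 to 4.71 and from 2.76 to 4.34. Limma called 0 of these genes in the 9 comparisons.

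Genes of DNA methylation and silencing were measured for 25 of 26 listed, and 23 passed the filter. DNMT3B, a DNA methyltransferase that sets new methylation, read 9.52 to 9.85 in the CNOT1 and CNOT3 lines against 7.73 to 9.09 in the others (difference 1.26). It was the 1 gene of these 23 that was more than 2-fold higher without overlap, beside 1.62% of all 15036 genes, and 0 were lower, beside 2.61%. The maintenance methyltransferase DNMT1 read 9.36 to 9.76 against 8.80 to 9.66, and its cofactor UHRF1 9.52 to 9.90 against 8.90 to 9.77, both overlapping. TET1, which oxidises methylated cytosine, read 11.47 to 12.14 against 11.54 to 12.32. The median difference of the 23 was 0.32, against 0.02 over all genes tested. Limma called 0 of the listed genes in the 9 comparisons. Their part in the CT45A difference was not tested.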

How the data were processed

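RNA from HEK-293T cells was labelled with Cy3 and hybridised to 12 1-colour Agilent oligonucleotide arrays; whether each array had its own culture is not given in the sources used here. The authors took log mean spot signals, corrected background by NormExp on negative control spots and quantile-normalised them with limma, and the log2 values were deposited in 1 table. Their log base is not stated and was taken as 2 from their range (1.56 to 15.98). Of 62976 spots, 37051 carried a gene symbol in the platform annotation, which can be old. Each gene was represented by its spot with the highest mean.

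For tests, genes whose mean lay below the 25th percentile were removed. Group means were fitted with limma 3.58.1 in R 4.3.3 on the log2 values, with Benjamini-Hochberg adjustment over all genes and a threshold of 0.05. The 5 comparisons of the CNOT2 and Luci lines used their 8 arrays, and the other 4 used all 12. The fits were tested on simulated data. Deviations of same-numbered arrays from their group means correlated between all 6 pairs of groups (r = 0.365 to 0.614), so the numbers pair the arrays. A replicate block was run as an alternative. The SE, intervals and p-values printed for these comparisons come from the fits without this block. They ignore the pairing and leave the difference between replicates in their spread. The number of arrays limits the precision.

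Named with values were CT45A1 and CT45A5, members spanning more than 2 log2 units, members at or above the mean of all genes (6.15), the 2 brightest of each family and the 5 genes most like CT45A1. PAGE3 and genes of the neighbour, antigen and silencing lists were named after their values were seen, as were the replicate comparisons. The members and lists were chosen with earlier results of these data known. Gene order, current symbols and promoter sequences came from RefSeq (GRCh38.p14).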

Additional observations from a re-analysis of the deposited data

How the results depend on the processing

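All 9 tested comparisons gave 0 called members by limma under every alternative run: a replicate block (0 members), an intensity trend, no filter on low values, the mean of a gene's spots, values raised to a floor of 2.91, Luci -Dox replicate 2 counted as +Dox, each of the 8 CNOT2 and Luci arrays left out in turn (0 to 0), and, for the CNOT2 and Luci comparisons, all 12 arrays in the fit. Since 8 of the 9 comparisons called 0 of all genes as well, these counts say little about stability. The replicate block changed no call of a member. Over all genes, the 12 calls of the CNOT1 line minus the CNOT3 line became 164 with the replicate block, 46 with the intensity trend, 27 with the floor and 0 with any of the 8 replicated arrays left out, and the Dox effect in the CNOT1 line gave 1 call with the floor.

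CT45A1 and CT45A5 kept their difference between the CNOT1 and CNOT3 lines and the others in sign under all alternatives. The genes were chosen by this contrast, so the values below are a description and lend it no support. The CT45A1 difference moved to -4.03 when both of its spots were averaged. With each replicated array left out in turn it ran from -5.71 to -5.60 and that of CT45A5 from -6.52 to -6.47, with 2 members lower each time. With replicate 1 of every group alone, 4 members were more than 2-fold lower without overlap, MAGEA2B and MAGEA12 joining the CT45A genes. Of these, MAGEA12 did not pass the filter over all 12 arrays. Leaving out both CNOT2 replicate 1 arrays, an alternative added after the data were seen, left 2. The share of all genes that met this measure was not counted under these alternatives, so nothing is read from these member counts. In the added replicate comparison of the CNOT2 line the intensity trend called 1 member and 730 genes, against 0 and 0 without it. Signals near background, single arrays in the CNOT1 and CNOT3 lines and near-identical gene copies limit these values.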
